A study of Mus musculus with 8 samples.

Results

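The levels of 10 genes that mark the bile duct epithelium and its expansion in injured liver were measured in whole-liver RNA. They were taken by name from the deposited table, and all 10 of 10 were found among its 30266 genes. The set holds the keratins Krt8 and Krt18, the duct markers Krt7, Krt19, Sox9, Epcam, Spp1 and Cd24a, and Krt23 and Sox4. All libraries came from livers of male mice with the genotype label Mdr2-/- (loss of Abcb4, the canalicular phospholipid transporter), 8 weeks old. The control group received PBS (4 libraries) and the other group recombinant FGF21, labelled rFGF21, at 1.0 mg/kg (4 libraries), and livers were taken after 4 h. Both groups carry the Mdr2 deletion, so these values do not compare injured with healthy liver.

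Cholangiocytes line the bile ducts. In normal liver Krt7 and Krt19 are keratins of the ducts, whereas Krt8 and its partner Krt18 form the intermediate filaments of hepatocytes and cholangiocytes alike. In cholestatic injury, bile duct cells and intermediate cells multiply around the portal tracts, a change called the ductular reaction, and hepatocytes raise Krt8 and Krt18. The study's title places FGF21 in cholestatic liver injury, and the comparison here asks how the duct and keratin transcripts stood a few hours after the hormone was given. In bulk tissue, more cells of a type and more RNA per cell cannot be told apart.

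The 8 libraries held 62756328 to 73313449 reads, and a member had between 309 and 105441 reads in a library. Libraries carry the number of their column in the table (PBS 1, 2, 4 and 5; rFGF21 1, 2, 3 and 5), which differs from the sample numbers of the labels. Nothing in the labels says that every sample came from its own mouse, and the spread behind each p-value may be partly technical. Levels are CPM, that is, reads of a gene relative to the library's TMM-scaled total. The protocol label names retina while the tissue label says liver. Hepatocyte markers summed to 116332 to 144181 CPM, whereas no library had a read of Crx or Rcvrn, both expressed in photoreceptors (0 reads, with an upper limit of 3 per library).

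Krt8 (ENSMUSG00000049382, GRCm38 chromosome 15, 101996698 to 102004482, minus strand) and Krt18 (ENSMUSG00000023043, chromosome 15, 102028180 to 102032027, plus strand) lie near each other and point away from each other, with 23698 bp between their starts. Krt7 (ENSMUSG00000023039, chromosome 15, 101411043 to 101430313, plus strand) lies on the same chromosome. The windows from 250 bases before to 50 bases after the RefSeq start (GRCm38.p6) are shown for these 3 keratins, since Krt8 and Krt18 kept a near-constant ratio across libraries and Krt7 did not follow them. The windows are chr15:102004293-102004592 (minus strand) for Krt8, chr15:102027966-102028265 (plus strand) for Krt18 and chr15:101412153-101412452 (plus strand) for Krt7, each written 5′ to 3′. Capitals mark matches on either strand to the TATA box TATAAA, to the GC box GGGCGG or to GTGGGAA, the core bound by RBPJ, the DNA-binding factor of Notch signalling.
Krt8: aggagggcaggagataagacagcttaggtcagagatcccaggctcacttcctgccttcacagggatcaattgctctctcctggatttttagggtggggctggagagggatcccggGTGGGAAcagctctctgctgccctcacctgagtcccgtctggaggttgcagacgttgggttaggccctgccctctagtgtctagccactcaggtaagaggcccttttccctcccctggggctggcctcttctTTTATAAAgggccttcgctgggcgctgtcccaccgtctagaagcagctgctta
Krt18: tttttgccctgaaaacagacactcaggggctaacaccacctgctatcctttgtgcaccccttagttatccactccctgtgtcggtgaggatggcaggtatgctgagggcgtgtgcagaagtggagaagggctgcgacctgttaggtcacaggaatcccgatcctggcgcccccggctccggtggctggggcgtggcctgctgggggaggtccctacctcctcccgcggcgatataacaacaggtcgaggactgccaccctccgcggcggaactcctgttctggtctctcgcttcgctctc
Krt7: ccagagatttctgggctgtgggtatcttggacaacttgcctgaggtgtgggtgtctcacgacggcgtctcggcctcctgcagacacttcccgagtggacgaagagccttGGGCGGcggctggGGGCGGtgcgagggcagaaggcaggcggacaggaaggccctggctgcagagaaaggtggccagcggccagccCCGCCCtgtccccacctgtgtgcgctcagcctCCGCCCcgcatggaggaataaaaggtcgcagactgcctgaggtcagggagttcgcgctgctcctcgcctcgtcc

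The Krt8 window holds GTGGGAA and a TATAAA match that overlaps its own reverse complement, the Krt7 window holds 4 GC boxes, and the Krt18 window holds none of the 3 motifs. Over all 32851 windows of the same length, 13.6% held the TATA box, 35.7% the GC box and 6.38% the RBPJ core. Windows were found for 7 members, and those of Spp1 (TATA box) and Epcam (GC box) also held a match. The TATAAA match began at position -1 from the RefSeq start in Krt8 and at -211 in Spp1. In all, 11 motifs were searched on both strands. Sox4 held GGAATG, the TEAD core (14.7% of all windows), and Krt23 held ACAAT, a SOX core (31% of all windows), and an NF-kB motif (0.411%). No member's window held TGANTCA of AP-1 (7.81%), CCGGAAGT of ETS factors (3.89%), TGACGTCA of the cAMP response element (1.79%) or the serum response element (1.63%). These matches describe the letters of the windows, and Krt19, Sox9 and Cd24a have no window here.

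By level per length (CPM per kb of a gene's merged exons), Krt8 and Krt18 stood far above the other members. In PBS libraries the level was 463 ± 96.7 CPM per kb for Krt8 and 412 ± 78.4 for Krt18 (SD, n = 4), and these ranges overlapped. Spp1, which encodes the secreted phosphoprotein osteopontin, followed with 111 ± 21.3 CPM per kb, apart from its neighbours on both sides. Krt23, a keratin induced in injured liver, stood at 23.4 ± 7.84, the surface glycoprotein gene Cd24a at 12.6 ± 2.15 and the adhesion molecule gene Epcam at 8.56 ± 1.30 CPM per kb, each overlapping the next in this group of 3. Krt19 (3.83 ± 0.75) overlapped with the transcription factor gene Sox4 (3.15 ± 0.84). Sox9 (1.84 ± 0.07) lay below Sox4 without overlap, and Krt7 (1.46 ± 0.41) overlapped with Sox9. The order of means was the same in rFGF21 libraries. The last place of Krt7 depends on its gene model, whose exons cover 7049 bp against 1855 bp for Krt19. By reads, Krt7 had 1.43 ± 0.18 times as many as Krt19 in PBS libraries and 1.42 ± 0.38 times in rFGF21 libraries.

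None of the 10 members passed the test between rFGF21 and PBS (edgeR's quasi-likelihood test, two-sided, Benjamini-Hochberg adjusted over 18315 genes, threshold 0.05). Of all tested genes 516 (2.82%) passed, 210 higher and 306 lower (40.7% higher). With scaling by library totals in place of TMM, 435 passed, 257 higher and 178 lower (59.1% higher), the median of all genes moved from 0.003 to 0.09, and all 10 members again had a positive log2 fold change without passing. All 10 members nonetheless had a higher mean in rFGF21 libraries, against 50.4% of all tested genes, with log2 fold changes of 0.30 to 0.69 and adjusted p of 0.111 to 0.363. At an unadjusted p under 0.05, 9 members were higher (8.92% of all genes), and DESeq2 called 5 (3.76% of all genes), Krt18, Krt19, Sox9, Cd24a and Krt23. The members' median was 0.60, beside 0.003 over all tested genes. Since the same libraries and, in part, the same cells give all 10 values, these counts are not 10 independent observations.

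**Figure D1:**
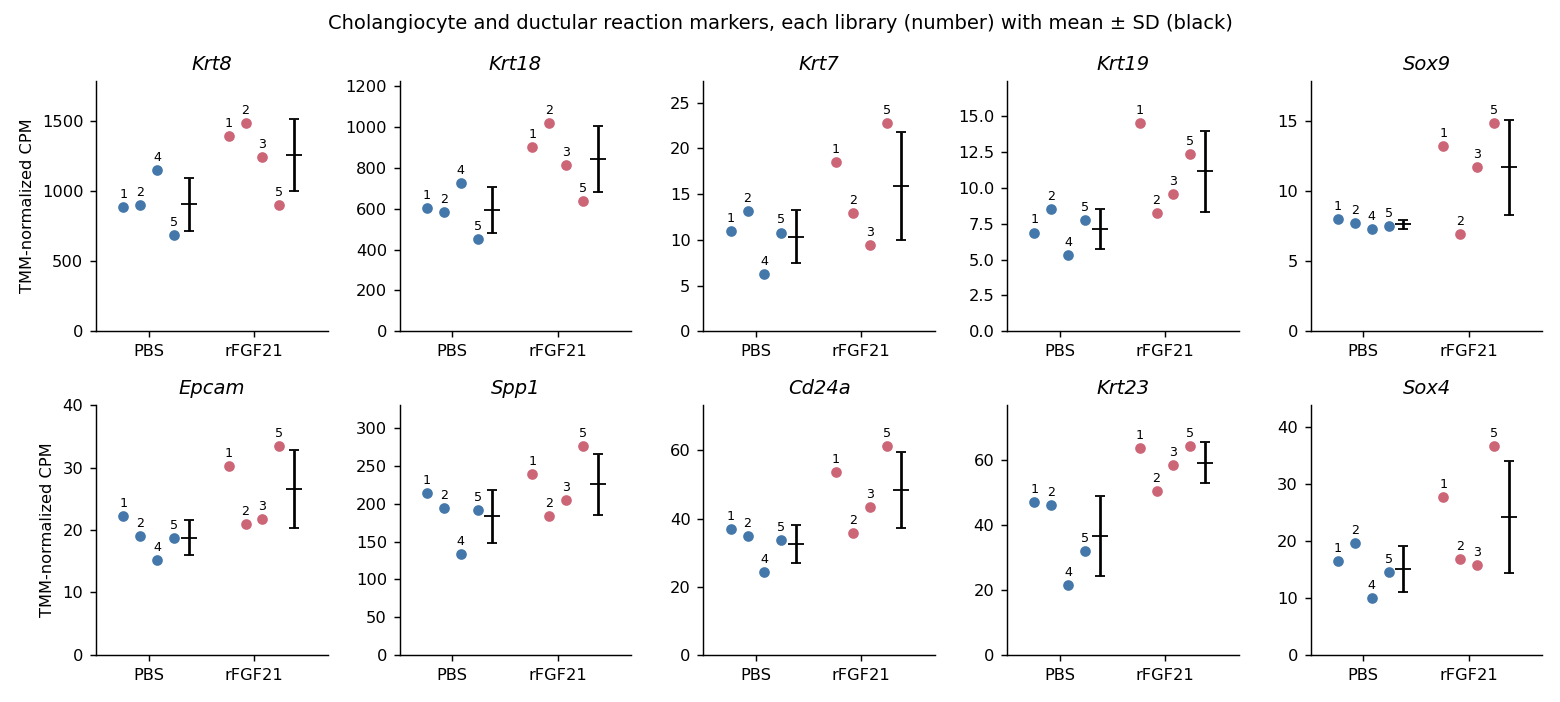
TMM-normalized CPM of each of the 10 markers (vertical axes, each from 0) in PBS and rFGF21 libraries; points are single libraries with their number and black bars are the mean ± SD of 4. Krt23 is the marker whose groups do not overlap, and PBS library 4 is low in every panel but those of Krt8 and Krt18, where it is the highest PBS library.

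Krt8 stood at 887, 902, 1151 and 689 CPM in PBS libraries 1, 2, 4 and 5 and at 1393, 1488, 1242 and 899.6 CPM in rFGF21 libraries 1, 2, 3 and 5. Library 5 of the rFGF21 group lay within the PBS range, and the other 3 lay above it. The log2 fold change was 0.47 ± 0.18 (SE, n = 4 each, edgeR adjusted p = 0.199). Krt18 stood at 601, 585, 727 and 452 CPM in the same PBS libraries and at 900.6, 1021, 812 and 639 CPM in the rFGF21 libraries. Library 5 was again the 1 rFGF21 library inside the PBS range. Its log2 fold change was 0.51 ± 0.17 (edgeR adjusted p = 0.138, and 0.0342 by DESeq2). Both genes together took 0.145% ± 0.026 of all reads in PBS and 0.215% ± 0.036 in rFGF21 libraries. Krt8-ps, a processed pseudogene of Krt8, had 151 to 293 reads in a library. The antisense gene Gm36026 at the same locus had 16, 31, 26 and 16 reads in PBS libraries and 98, 125, 73 and 56 in rFGF21 libraries. Its groups did not overlap, and by CPM 5.9% of all tested genes were likewise higher in all rFGF21 libraries. No source used here names the strand setting of the counting, so reads of the pair cannot be told apart.

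Krt19 (ENSMUSG00000020911, chromosome 11, 100140810 to 100146120), the keratin most used to stain bile ducts, stood at 6.89, 8.52, 5.29 and 7.74 CPM in PBS and at 14.5, 8.21, 9.54 and 12.3 CPM in rFGF21 libraries, in the library order used above. The groups overlapped only through rFGF21 library 2, which lay below PBS library 2. The log2 fold change was 0.65 ± 0.20 (edgeR adjusted p = 0.12, and 0.0324 by DESeq2). Krt7, the other duct keratin, stood at 11.0, 13.2, 6.29 and 10.8 CPM in PBS and at 18.5, 13.0, 9.38 and 22.8 CPM in rFGF21 libraries. Libraries 2 and 3 of the rFGF21 group fell within the PBS range, and the SD within rFGF21 was 37.3% of the mean. Krt7 had a log2 fold change of 0.62 ± 0.28 (edgeR adjusted p = 0.262), and without rFGF21 library 5 it was 0.40.

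Sox9 (ENSMUSG00000000567, chromosome 11, 112782224 to 112787760), a transcription factor of duct cells that hepatocytes near the portal tract take up in cholestasis, was the steadiest member in PBS. Its level was 7.96, 7.72, 7.25 and 7.49 CPM there, an SD of 4.01% of the mean where counting alone gives 4.51%, and 13.2, 6.96, 11.7 and 14.9 CPM in rFGF21 libraries. Library 2 of the rFGF21 group lay below every PBS library while the other 3 lay above every one. For Sox9 the log2 fold change was 0.62 ± 0.20 (edgeR adjusted p = 0.130). Without rFGF21 library 2 it was 0.81 with an edgeR adjusted p of 0.0211, and over all 16 alternatives the adjusted p ran from 0.0211 to 0.316.

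Epcam (ENSMUSG00000045394, chromosome 17, 87635979 to 87651106) stood at 22.2, 19.04, 15.3 and 18.7 CPM in PBS and at 30.3, 20.9, 21.8 and 33.4 CPM in rFGF21 libraries. Libraries 2 and 3 of the rFGF21 group lay within the PBS range and libraries 1 and 5 above it (log2 fold change 0.50 ± 0.17, edgeR adjusted p = 0.144). Cd24a (ENSMUSG00000047139, chromosome 10, 43578284 to 43584265) stood at 36.8, 34.9, 24.4 and 33.8 CPM in PBS and at 53.6, 35.7, 43.4 and 61.2 CPM in rFGF21 libraries. The groups overlapped only through rFGF21 library 2, and the log2 fold change was 0.58 ± 0.18 (edgeR adjusted p = 0.111, and 0.0259 by DESeq2).

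Spp1 (ENSMUSG00000029304, chromosome 5, 104435118 to 104441050), which macrophages and stellate cells also express, had the smallest difference. It stood at 214, 195, 133 and 192 CPM in PBS and at 239, 184, 205 and 276 CPM in rFGF21 libraries, so that libraries 2 and 3 of the rFGF21 group lay among those of PBS. Spp1 had a log2 fold change of 0.30 ± 0.17 (edgeR adjusted p = 0.363), and it was 0.18 without PBS library 4 and 0.19 without rFGF21 library 5.

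Krt23 (ENSMUSG00000006777, chromosome 11, 99477974 to 99493137) stood at 46.9, 46.2, 21.4 and 32.0 CPM in PBS and at 63.6, 50.4, 58.2 and 64.0 CPM in rFGF21 libraries. All 4 rFGF21 libraries lay above all 4 PBS libraries, which held for 5.9% of all tested genes and for no other member. The log2 fold change was 0.69 ± 0.21 (edgeR adjusted p = 0.118, and 0.0214 by DESeq2), and the spread was 33.5% of the mean in PBS against 10.7% in rFGF21 libraries. Sox4 (ENSMUSG00000076431, chromosome 13, 28948919 to 28953713), a transcription factor of bile duct development, stood at 16.4, 19.5, 9.89 and 14.5 CPM in PBS and at 27.7, 16.7, 15.8 and 36.5 CPM in rFGF21 libraries. Libraries 2 and 3 of the rFGF21 group lay within the PBS range, and the log2 fold change was 0.68 ± 0.28 (edgeR adjusted p = 0.219). It was 0.41 without rFGF21 library 5.

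**Figure D2:**
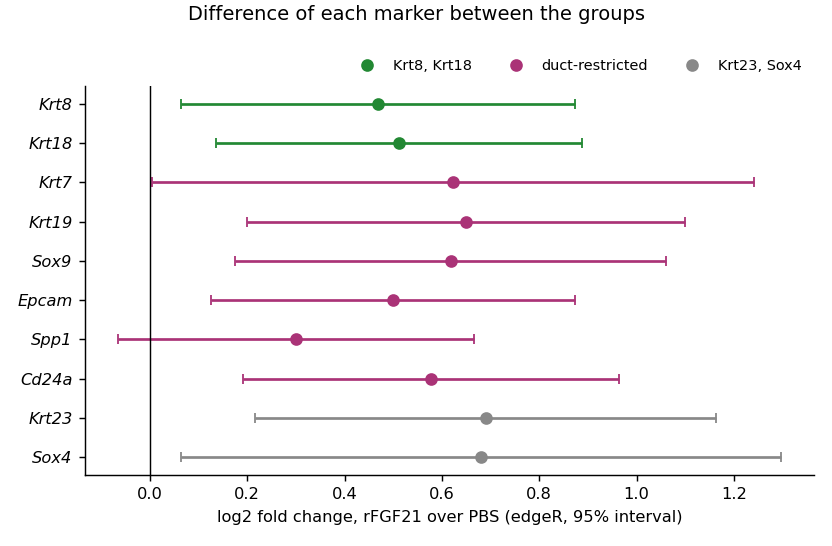
Log2 fold change of each marker, rFGF21 over PBS (horizontal axis), with the 95% interval of the edgeR fit; green is Krt8 and Krt18, purple the 6 duct-restricted markers and grey Krt23 and Sox4. All 10 points lie right of 0, from 0.30 to 0.69, and the intervals overlap one another.

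The pan-epithelial keratins were next set against the duct-restricted markers within each library, where scaling between libraries cancels. The contrast was the mean log2(CPM + 0.1) of Krt8 and Krt18 minus that of Krt7, Krt19, Sox9, Epcam, Spp1 and Cd24a. Between groups, both sides differed by nearly the same amount, 0.49 for the keratins and 0.52 for the duct markers. The contrast was 5.19 ± 0.50 in PBS and 5.16 ± 0.61 in rFGF21 libraries (SD, n = 4 each), a difference of -0.03. As a score over the members it was not tested. Its sign rests on single libraries, since the difference was 0.21 without PBS library 4 and 0.23 without rFGF21 library 5.

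Within groups the sides moved apart. The contrast was 5.06, 5.04, 5.91 and 4.75 in PBS libraries 1, 2, 4 and 5 and 5.06, 5.82, 5.36 and 4.37 in rFGF21 libraries 1, 2, 3 and 5. PBS library 4 had the highest Krt8 and Krt18 of its group and the lowest of all 6 duct markers. In rFGF21 library 2 both keratins were again the highest of the group, and all 6 duct markers lay under the group mean. Library 5 of the rFGF21 group showed the opposite, with both keratins the lowest and all 6 duct markers above the group mean. In rFGF21 library 1, keratins and duct markers were all above their group means. Reads of Krt8 and Krt18 outnumbered those of Krt7 and Krt19 by 162 times in PBS library 4 and by 43.8 times in rFGF21 library 5, which are the extremes of the 8 libraries. The group means of this ratio were 93.9 ± 46.5 in PBS and 85.1 ± 34.7 in rFGF21 libraries.

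**Figure D3:**
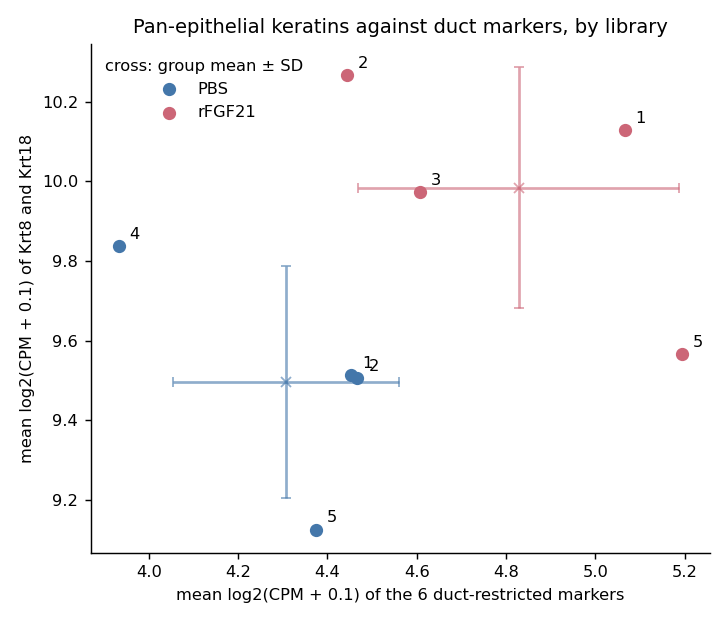
Mean log2(CPM + 0.1) of Krt8 and Krt18 (vertical axis) against that of the 6 duct-restricted markers (horizontal axis) in each of 8 libraries; crosses are group means with SD bars. The rFGF21 mean lies 0.49 above and 0.52 to the right of the PBS mean, while PBS library 4 and rFGF21 library 2 sit high and to the left within their groups and rFGF21 library 5 low and to the right.

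How steadily pairs of members kept their ratio was described by the pooled within-group SD of the log2 ratio of their levels, over 8 libraries. Of 45 pairs, Krt8 and Krt18 were the steadiest, with an SD of 0.05. Krt8 had 1.47, 1.54, 1.58 and 1.52 reads for each Krt18 read in PBS and 1.55, 1.46, 1.53 and 1.41 in rFGF21 libraries. Next came Spp1 with Cd24a (0.07), Epcam with Cd24a (0.10), Epcam with Spp1 (0.11) and Krt7 with Sox4 (0.13). The 15 pairs among duct-restricted markers had a median SD of 0.23, and the 12 pairs of a pan-epithelial keratin with a duct marker had 0.56, with no overlap between the 0.47 that was highest among the former and the 0.50 that was lowest among the latter. Krt8 with Krt7 was the least steady pair (0.74), although both encode type II keratins from the same chromosome. Krt7 and Krt19, the pair most often read together as duct keratins, had an SD of 0.31.

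**Figure D4:**
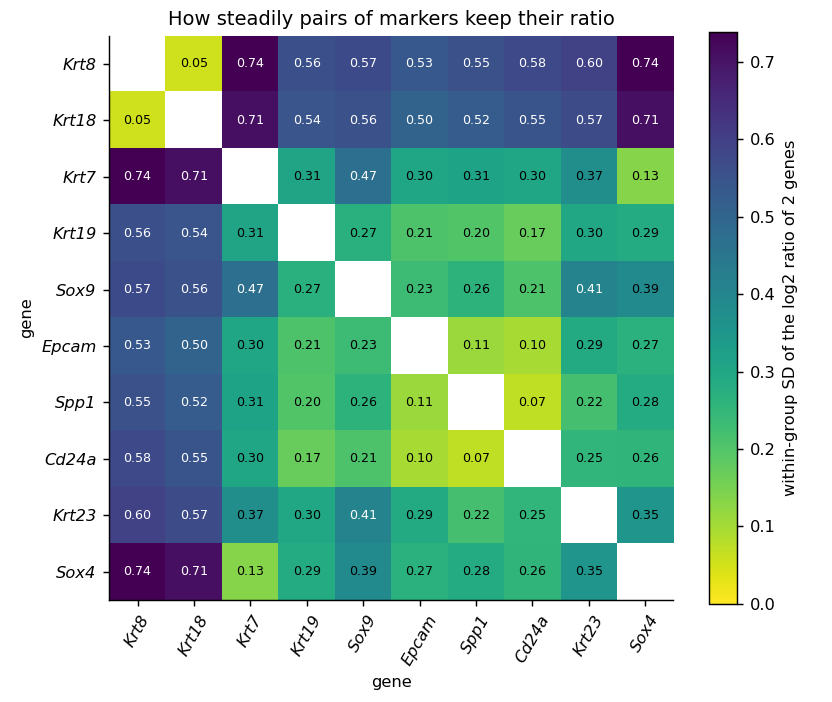
Pooled within-group SD of the log2 ratio of each pair of markers over 8 libraries (colour and printed value; both axes list the genes). Krt8 and Krt18 stand at 0.05 with each other and at 0.50 to 0.74 with the duct-restricted markers.

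Genes with the profile most like that of Krt19 were sought among 12514 protein-coding genes, by the root mean square difference of centred log2 levels over the 8 libraries. The 5 nearest were Mlph (0.12), the collagen genes Col1a2 (0.12) and Col1a1 (0.12), Isyna1 (0.12) and Lmcd1 (0.13), against 0.43 for the size of the Krt19 profile itself. Cd24a ranked 10, Epcam 48 and Krt7 386. For Krt18 the nearest gene was Krt8 (0.05), followed at some distance by Spidr, Prelid2, Nostrin and Ccl9 (0.15 to 0.16), and Krt19 ranked 8958.

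Markers of other cells were summed in the same libraries. The 13 stellate cell and fibroblast markers summed to 811 to 1136 CPM with PBS and 1045 to 1594 CPM with rFGF21, and 11 of them had a positive log2 fold change (50.4% of all tested genes did). None passed edgeR, and 4 were higher at an unadjusted p under 0.05 (8.92% of all tested genes). DESeq2 called Col1a1 and Col1a2 higher (adjusted p = 0.0260 and 0.0199), beside 3.76% of all tested genes. Library by library they stood at 1136, 1079, 811 and 1031 CPM in PBS and at 1408, 1045, 1162 and 1594 CPM in rFGF21 libraries. The sum of the 6 duct markers had the same order within each group, but most of it was Spp1 (214 of 299 CPM in PBS library 1). Sox9, Epcam, Spp1 and Cd24a each had this order on their own, while Krt7 and Krt19 were highest in PBS library 2. Of 15 hepatocyte markers none passed edgeR, 11 had a negative log2 fold change (9 with scaling by library totals), and the median was -0.21 (-0.12 with library totals). With edgeR at an unadjusted p under 0.05, 4 were lower and 1 was higher, beside 8.92% of all tested genes higher and 18.8% in either direction. Apoa2, an apolipoprotein gene, stood at 2300 ± 165 CPM in PBS and 1795 ± 54.4 with rFGF21 (edgeR adjusted p = 0.0741, and 0.000963 by DESeq2). Each rFGF21 library lay below each PBS library, which held for 6.39% of all tested genes. The fibrinogen gene Fgb stood at 3665 ± 574 and 5417 ± 798 CPM (edgeR adjusted p = 0.0638, 0.0230 with library totals, and 0.00266 by DESeq2). Its rFGF21 libraries all lay above those of PBS, which held for 5.9% of all tested genes. In rFGF21 library 2, 10 of the 15 were the highest of their group, and in rFGF21 library 5, 12 were the lowest. PBS library 4 had the highest value of its group for 4 of the 15, Alb among them, and the lowest for 4 others. Mesothelial cells also hold keratins, and their 7 markers summed to 8.65 to 17.5 CPM with PBS and 9.75 to 25.3 CPM with rFGF21. All 7 tested neutrophil markers had a higher mean in rFGF21 libraries (13.0 to 21.1 and 15.3 to 32.6 CPM). None passed edgeR, and 2 were higher at an unadjusted p under 0.05 (8.92% of all tested genes). The 15 macrophage markers summed to 1224 to 1839 CPM with PBS and 1219 to 1586 CPM with rFGF21, with 8 higher and 7 lower means. The part of these cells in the members' values was not tested.

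Among 23 other keratin genes of the table, 4 had enough reads to be tested, and Krt26 and Krt77 had 0 reads in all libraries. None passed (edgeR; 2 at an unadjusted p under 0.05, 8.92% of all genes being higher at that p), and the 4 log2 fold changes were all positive with a median of 0.54. Krt80 stood at 0.90 ± 0.12 CPM with PBS and 1.42 ± 0.22 CPM with rFGF21, and Krt20 at 0.45 ± 0.25 and 1.18 ± 0.59 CPM. For Krt80 all rFGF21 libraries lay above all PBS libraries (5.9% of all tested genes).

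Surface and junction genes of the duct epithelium held 2 genes that rose among 20 tested with edgeR and none that fell, beside 1.15% of all genes called higher. DESeq2 called 7 of the 20 higher (3.76% of all genes), and edgeR with scaling by library totals called 3 (257 of all 18315 genes). At an edgeR unadjusted p under 0.05, 12 were higher (8.92% of all genes) and none lower. Cdh1, E-cadherin of all liver epithelium, rose by 0.50 ± 0.09 on the log2 scale (176 ± 11.6 CPM in PBS, 248 ± 11.5 with rFGF21, edgeR adjusted p = 0.0194), and Alcam, a cell adhesion molecule, by 0.45 ± 0.09 (181 ± 10.9 and 246 ± 17.8 CPM, edgeR adjusted p = 0.0333). Hepatocytes make Cdh1 too. The list's median was 0.52, and 18 members had a positive log2 fold change. All rFGF21 libraries lay above all PBS libraries in 5, which held for 5.9% of all tested genes. The call of Cdh1 was lost without rFGF21 library 1 or 5 (edgeR adjusted p = 0.0755 and 0.0602), and that of Alcam when any rFGF21 library or PBS library 1 or 5 was left out (0.0651 to 0.0813) or with no filter on low counts (0.0525). The tight junction gene Cldn4 stood at 6.42 ± 2.39 and 12.9 ± 4.8 CPM and the protease gene St14 at 21.7 ± 6.2 and 43.1 ± 16.7 CPM without passing (edgeR adjusted p = 0.129 and 0.0979).

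Genes of cholangiocyte secretion and cilia had no member that passed among 20 with edgeR, and their median was 0.16. With edgeR at an unadjusted p under 0.05, 4 were higher and 2 lower, beside 8.92% of all genes higher and 18.8% in either direction. DESeq2 called 1 of the 20 higher, Pkd2, and 1 lower, Ppp1r1b. Of all genes, it called 3.76% higher and 1508 of 18315 in either direction. Pkd2, a calcium channel of the primary cilium, stood at 14.6 ± 2.9 CPM with PBS and 22.4 ± 5.2 CPM with rFGF21 (edgeR adjusted p = 0.103). Ppp1r1b stood at 3.69 ± 0.19 and 1.88 ± 0.68 CPM, with all rFGF21 libraries below all PBS libraries, which held for 6.39% of all genes.

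Of 16 transcription factors linked to the biliary lineage, edgeR called 1 higher (1.15% of all genes) and none lower. This gene, Gata6, rose by 0.69 ± 0.12 on the log2 scale (10.1 ± 0.36 CPM in PBS, 16.3 ± 2.47 with rFGF21, edgeR adjusted p = 0.01902). Hepatocytes share some of these factors. The means of the 16 in PBS ran from 0.74 to 554 CPM, and whole liver does not tell hepatocyte from duct RNA. The median of the 16 was 0.20, with 10 positive and 6 negative log2 fold changes. With edgeR at an unadjusted p under 0.05, 4 were higher and 2 lower, beside 8.92% of all genes higher and 18.8% in either direction. Gata6 no longer passed when PBS library 5, rFGF21 library 1 or rFGF21 library 5 was left out (edgeR adjusted p 0.0504 to 0.0681), or with limma on log2(RPKM + 1) (adjusted p = 0.0535). Elf3, an epithelial ETS factor, stood at 13.6 ± 6.6 and 34.4 ± 10.9 CPM (edgeR adjusted p = 0.0606).

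Among 11 tested genes of progenitor cells and the ductular reaction, 1 rose with edgeR (1.15% of all genes), and DESeq2 called 3 higher (3.76%). Their median was 0.43, with 9 positive and 2 negative log2 fold changes. At an edgeR unadjusted p under 0.05, 5 were higher (8.92% of all genes) and none lower. In 3 of them all rFGF21 libraries lay above all PBS libraries (5.9% of all genes). Tnfrsf12a, the receptor Fn14 through which the cytokine TWEAK drives duct cell proliferation, stood at 25.1, 29.3, 23.9 and 29.7 CPM in PBS and at 68.1, 55.6, 53.7 and 58.2 CPM in rFGF21 libraries. The groups were far apart, with a log2 fold change of 1.13 ± 0.11 (edgeR adjusted p = 0.00413), and the call held in all 16 alternatives. Its ligand gene Tnfsf12 stood at 18.8 ± 2.5 and 18.5 ± 1.6 CPM (edgeR adjusted p = 0.941).

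Notch signalling specifies bile duct cells, and YAP is active in them. No Notch gene passed among 22 with edgeR. With edgeR at an unadjusted p under 0.05, 5 were higher and 2 lower, beside 8.92% of all genes higher and 18.8% in either direction. DESeq2 called 1 of the 22 higher and 1, Hes6, lower, and it did not call Notch2. It called 3.76% of all genes higher and 1508 of 18315 in either direction. Hes6 stood at 37.4 ± 5.1 and 26.7 ± 3.1 CPM (edgeR adjusted p = 0.0607; without PBS library 4, 0.0372) and the receptor gene Notch2 at 45.5 ± 3.2 and 55.1 ± 4.8 CPM. Of 17 YAP pathway genes and targets, edgeR called 1 higher (1.15% of all genes) and none lower. This gene, Ankrd1, rose by 1.23 ± 0.18 on the log2 scale (6.50 ± 1.37 CPM in PBS, 15.3 ± 2.83 with rFGF21, edgeR adjusted p = 0.00898), in all 16 alternatives. With scaling by library totals, 3 of the 17 passed, all higher (257 of all 18315 genes were called higher there). DESeq2 also called 3 of the 17, all higher (3.76% of all genes). The median of the 17 was 0.04, with 11 positive and 6 negative log2 fold changes. With edgeR at an unadjusted p under 0.05, 5 were higher and 1 lower, beside 8.92% of all genes higher and 18.8% in either direction. Ccn1, a secreted matrix protein gene and YAP target, had 25.2 ± 8.52 CPM in PBS and 38.9 ± 7.82 with rFGF21 (log2 fold change 0.63 ± 0.22, edgeR adjusted p = 0.159). Its relative Ccn2 stood at 50.1 ± 10.1 and 54.5 ± 21.1 CPM (edgeR adjusted p = 0.833).

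Keratin filaments anchor in desmosomes. Of 15 genes of desmosomes and filament partners, edgeR called 1 higher and 1 lower, beside 2.82% of all genes called in either direction. Dsc2, a desmosomal cadherin, rose by 0.63 ± 0.10 on the log2 scale (58.3 ± 4.98 CPM in PBS, 90.0 ± 8.34 with rFGF21, edgeR adjusted p = 0.0103) and did so in all 16 alternatives. Pkp4, a plakophilin relative, fell by 0.51 ± 0.10 (106 ± 8.25 CPM in PBS, 74.2 ± 6.93 with rFGF21, edgeR adjusted p = 0.0234), a call lost when rFGF21 library 1, 2 or 5, PBS library 1 or the filter on low counts was left out (0.0503 to 0.0861). Dsp, the plakin that joins keratins to the desmosome, stood at 106 ± 15.3 and 115 ± 12.04 CPM (edgeR adjusted p = 0.630). None of 10 proliferation genes passed or reached an unadjusted p under 0.05 with edgeR, and their median was -0.15.

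**Figure D5:**
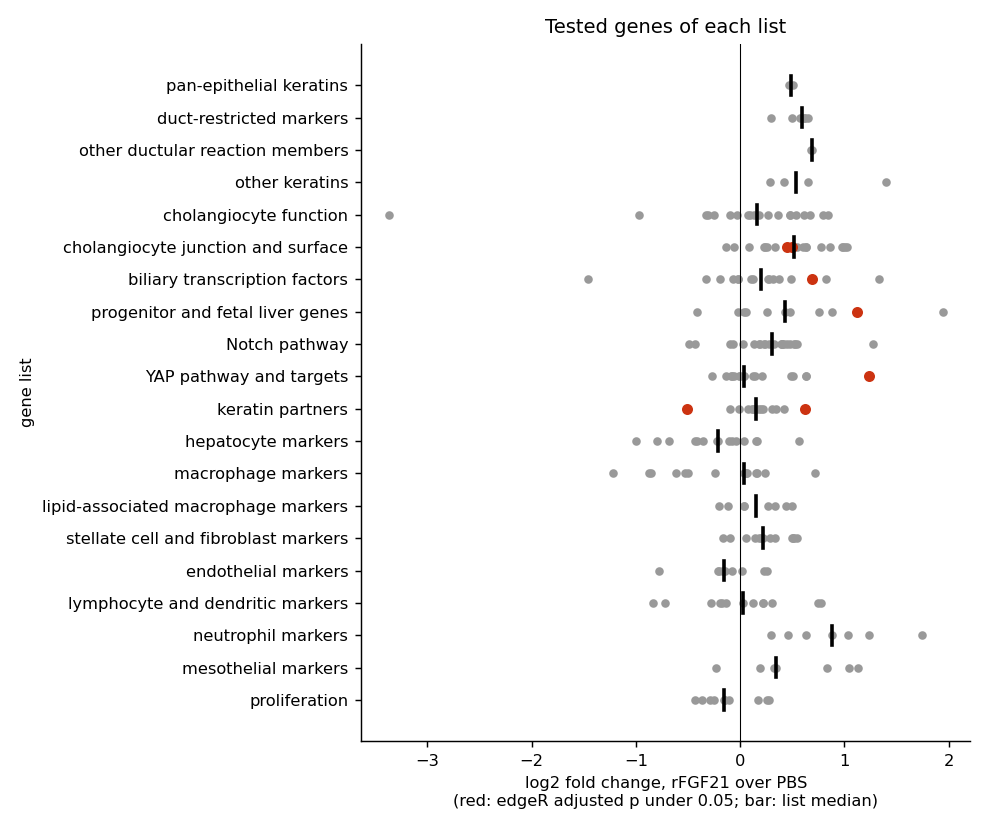
Log2 fold change, rFGF21 over PBS (horizontal axis), of each tested gene in the lists named at left; red points passed edgeR at an adjusted p under 0.05, grey points did not, and black bars are list medians. The marker lists in the top 3 rows hold no red point and medians of 0.49 to 0.69, while 2 red points each belong to the junction list and, on either side of 0, the keratin partner list, and 1 each to the transcription factor, progenitor and YAP lists.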

How the data were processed

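Whole-liver RNA of 4 PBS and 4 rFGF21 samples was sequenced after Trizol extraction and TruSeq library preparation, per the labels' protocols. The deposited table holds raw read counts per gene, per the file headers; the submitters' processing notes name Bowtie 0.12.2 and the build mm8. Of 30266 gene identifiers 30177 are in GENCODE mouse release 21 (GRCm38), 26331 of them (87.3%) with identical coordinates, so coordinates are given as GRCm38. The sources used here do not give the counter, its strand setting or its treatment of shared reads. Of 10 count columns, the 2 that have no FPKM column were not used. The count columns were assigned to groups by name; the 8 FPKM columns also show only a group and enter no reported value. No pair of libraries agreed within sampling noise (lowest chi-square over degrees of freedom 47.1).

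The test was edgeR 4.0.16 in R 4.3.3 with filterByExpr, TMM and the quasi-likelihood F test, without covariates, over 18315 genes. SE follows from the F statistic. The alternatives were RLE and upper-quartile scaling, DESeq2 1.42.0, limma 3.58.1 with voom, other filters, and leaving out each library; scaling by library totals and limma on log2(RPKM + 1), computed from the counts with library totals and GENCODE exon lengths, were chosen after seeing the data. The test was checked on simulated counts. Members and gene lists were chosen with earlier results of these data known, and no list was tested as a set. The ratios of pairs, the deviations by library, the motifs and the level per kb of GENCODE exons were added after the members' values were seen. Genes named are all members, up to 4 genes per list past the threshold or else those with the smallest p, and the 5 genes nearest to Krt19 and Krt18; Krt20, Krt80, Cldn4, St14, Elf3, Tnfsf12, Ccn1, Ccn2 and Dsp were named with their values known. The values of 1 listed gene and 1 of the motifs searched are not reported here.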

Additional observations from a re-analysis of the deposited data

How the results depend on the processing

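All 10 members kept a positive log2 fold change in each of 16 alternatives (160 of 160 values). Of these values 6 passed the threshold, 5 with DESeq2 (Krt18, Krt19, Sox9, Cd24a and Krt23) and Sox9 without rFGF21 library 2. The number of genes changed was 516 with edgeR, 198 without a filter on low counts and 1508 with DESeq2. Chosen after seeing the data, scaling by library totals gave 435 (257 higher, 178 lower), and limma on log2(RPKM + 1) from the counts gave 308 (171 higher, 137 lower), against 210 higher and 306 lower in the reported test. With 1 library left out it ran from 131 to 486. Leaving out rFGF21 library 1, 2, 3 or 5 gave 131, 277, 283 or 171 genes, and leaving out PBS library 1 or 5 gave 207 or 251. The difference in the contrast of keratins and duct markers stayed within its SD of 0.56, at -0.003 with a pseudocount of 1, -0.12 with Krt7 and Krt19 alone, -0.08 with Krt7, Krt19 and Epcam, -0.07 with all 8 other members, and -0.25 to 0.23 with 1 library left out. No member had under 309 reads in a library, and counting alone gives Sox9 in PBS a larger spread (4.51%) than was seen (4.01%). Tests on the deposited FPKM values (limma with 2 pseudocounts, and the contrast) were computed and then set aside, since FPKM columns, like count columns, show only a group and 1 set of columns was mapped to it. In those tests no member passed, more genes were called higher than lower, and Gata6 lost its call. No paired analysis was possible because the numbers of the columns are not the replicate numbers of the labels.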

Other observations

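Among the 5 tested markers of gut epithelium, edgeR called 1 lower (306 of all 18315 tested genes) and none higher. This was Lgals4, which encodes the epithelial lectin galectin-4. It stood at 17.4, 16.4, 10.4 and 15.4 CPM in PBS and at 3.89, 5.79, 5.76 and 3.79 CPM in rFGF21 libraries, a log2 fold change of -1.63 ± 0.21 (edgeR adjusted p = 0.00552). All 4 rFGF21 libraries lay below all 4 PBS libraries, which held for 6.39% of all tested genes, and the call held in all 16 alternatives. Onecut1, a factor of hepatocyte and duct development, spread widely in rFGF21 libraries. It stood at 35.7, 39.9, 71.3 and 62.0 CPM in PBS and at 11.2, 47.0, 5.15 and 12.6 CPM in rFGF21 libraries, where library 2 lay inside the PBS range (edgeR adjusted p = 0.184). Onecut1 was named with its values known.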
